A study of Homo sapiens with 5 samples.

Results

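Among the SRSF9 peaks that the authors classed as found only when ADAR2 was co-expressed, a small set was broad and of moderate height. Its members, chosen by their width and by their log2 ratios in the libraries, were the rows of the deposited peak table outside the mitochondrial chromosome that were at least 100 nt wide, held the placeholder 0 in both libraries without ADAR2, and had values above 0 in both libraries with ADAR2, with at least 1 of these at 2 or lower. The rule found 1129 members among the 80514 rows of the table, which is 1.40% (95% Wilson interval 1.32 to 1.49). Another 58512 rows met the same limits on the values but were narrower than 100 nt, and they serve as the comparison here. Both measures entered the choice, so both are given as a description and nothing is supported with them.

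The cells were HEK 293T, a human embryonic kidney cell line that expresses the SV40 large T antigen. All groups overexpressed SRSF9: in 2 libraries it was overexpressed alone, and in 2 libraries and 1 input RNA library it was overexpressed together with ADAR2. Bound RNA was mapped by eCLIP, in which RNA is fragmented, pulled down with its protein, released from a membrane and sequenced. An anti-SRSF9 antibody is given for the pulled-down samples but MYC-coupled beads in their protocol, and nothing says whether the 2 libraries of a group came from separate cultures.

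SRSF9, also called SRp30c, belongs to the serine/arginine-rich proteins, which bind exonic and intronic sequences of pre-mRNA through RNA recognition motifs and influence the choice of splice sites. ADAR2, the product of ADARB1, deaminates adenosine to inosine in double-stranded RNA, and the ribosome and sequencing read inosine as guanosine. A known ADAR2 substrate is the glutamate receptor pre-mRNA GRIA2, in which editing changes a codon of the channel pore. In a CLIP experiment a peak is an interval with more reads than its surroundings, so its width reflects fragment length, the spread of neighbouring contacts and the way the peak caller joins or splits signal. The study asked how SRSF9 acts on ADAR2 targets.

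Each value in the table is the authors' log2 ratio for a peak in a library, with a denominator that the table does not name. The 2 columns of a group carry no library name and are called the first and the second library in file order. Read depth is unknown, so no single value carries an interval of its own. The positions are on hg19, and no hg19 gene annotation or genome was at hand, so peaks are given by position, without strand, gene or sequence. Wilson intervals cover counting error over peaks only. Peaks of a transcript are not independent of each other and are not replicates, so differences between broad and narrower peaks were not tested.

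The members spanned 100 to 383 nt, with a median of 118 nt and quartiles of 107 and 137 nt. Together they covered 143820 nt. The narrower peaks had a median width of 33 nt (quartiles 20 and 48) and covered 2054278 nt. Broad intervals were uncommon in both exclusive classes of the nuclear genome. They made up 1.81% (1.71 to 1.91) of the 71920 peaks found only with ADAR2 and 1.03% (0.783 to 1.36) of the 4742 found only without it. Among the 3751 shared rows, which were called in both conditions, 11.7% (10.7 to 12.7) were broad. Of the 1301 broad nuclear peaks found only with ADAR2, 1129 were members, 121 had both libraries above 2 and 51 had both below 0. No broad peak found only with ADAR2 had libraries of opposite sign.

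Of the 10 widest members, the one on chromosome 21 from 46596013 to 46596395 was 383 nt wide, with log2 ratios of 1.13 and 0.25 in the first and second library. It lay 15 nt from another peak found only with ADAR2 and 89065 nt from the nearest peak found only without it. The next widest, on chromosome 17 from 60060159 to 60060422, was 264 nt wide with ratios of 1.35 and 0.96. A member of 252 nt on chromosome 1 from 70820110 to 70820361 had 1.51 and 0.98. These 3 intervals were all higher in the first library. A pair of members of 249 nt followed. The one on chromosome 6, from 32940423 to 32940671, had 1.69 and 0.97, and the other, from 95571882 to 95572130 of chromosome 9, had 1.83 and 1.36. On chromosome 12 a member of 247 nt from 98987958 to 98988204 had 2.03 and 1.66. The other 4 of the 10 were 243 to 246 nt wide and lay on chromosomes 14, 17 and 18. One of them, on chromosome 17 from 45177372 to 45177617, was higher in the second library, with 0.94 and 1.23, and it was the exception among these 10.

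In the first library with ADAR2 the lowest member had a log2 ratio of 0.04, the median was 1.35 and the highest 3.07. In the second library the lowest was 0.003, the median 1.06 and the highest 2.97. Both libraries exceeded 1 in 532 members, 47.1%, only 1 library did so in 350, and neither did in 247. An upper value above 2 occurred in 180 members, in the first library for 137 and in the second for 43. The first library was the higher in 779 of 1129, 69.0% (66.2 to 71.6), with a median difference, first minus second, of 0.27 (quartiles -0.09 and 0.63). In the narrower peaks the first library was the higher in 61.0% (60.6 to 61.4), with a median difference of 0.06. The commonest values of the narrower peaks were each 0.009 higher in the first library than their counterparts in the second. A peak with counterpart values in both libraries thus counts as higher in the first. In peaks of 1 to 20 nt and of 21 to 40 nt the median difference was 0.009. Libraries lay within 0.5 of each other in 58.4% (55.5 to 61.2) of the members and in 53.8% (53.4 to 54.2) of the narrower peaks. More than 1 separated them in 9.39% (7.82 to 11.2) and 15.7% (15.4 to 16.0). Across peaks, Pearson's r between the 2 libraries was 0.54 over the 1129 members and 0.43 over the 58512 narrower peaks. The limits of the rule cut off part of the range in both sets, and all peaks come from the same 2 libraries.

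**Figure D1:**
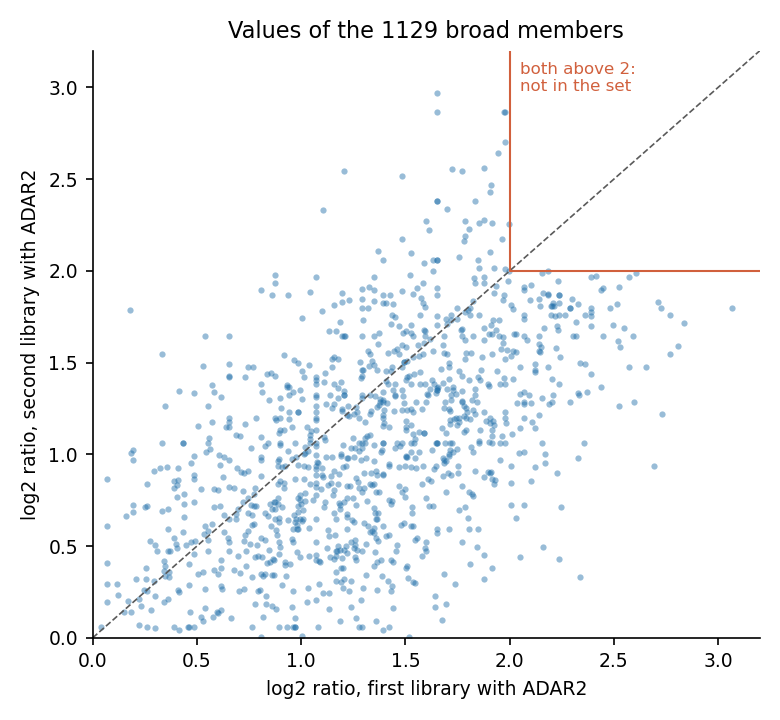
The log2 ratio of each of the 1129 members in the first library with ADAR2 (x axis) and the second (y axis). The dashed line marks equal values, the orange corner encloses the range with both libraries above 2 that the rule leaves out, and more points lie below the dashed line (779) than above it (350).

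The 10 members with the highest mean had means of 2.27 to 2.43, and in each of them 1 library lay above 2 and the other below it, as the rule requires. The highest was on chromosome 2 from 112656242 to 112656345, with 3.07 and 1.80. The next was the interval 29611937 to 29612044 of chromosome 20, at 1.98 and 2.87, followed by 33524565 to 33524670 of chromosome 9, at 1.97 and 2.87. The top member was thus led by the first library, and the members on chromosomes 20 and 9 by the second. The member on chromosome 15 from 72766298 to 72766398 had the highest ratio of the second library, 2.97, beside 1.65 in the first. All 10 were between 101 and 135 nt wide.

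At the low end, the 5 members with the lowest mean had means of 0.05 to 0.16. The lowest, on chromosome 16 from 58768064 to 58768203, had 0.04 and 0.06, which is close to a ratio of 1 on the linear scale. The peak on chromosome 20 from 57485737 to 57485886, with 0.22 and 0.07, was 150 nt wide and lay 280 nt from a shared peak. Just inside the upper limit was a chromosome 14 member, 58711744 to 58711860, at 2.19 and 1.999, and just outside it a chromosome 6 peak, 135369575 to 135369675, at 2.77 and 2.003. Just inside the lower limit was a chromosome 6 member, 7313288 to 7313414, at 0.81 and 0.003, and just outside it a chromosome 11 peak, 117152662 to 117152773, at -0.18 and -0.001. At the width limit, the 50 members of 100 nt had medians of 1.19 and 1.08 in the 2 libraries, and the 56 rows of 99 nt had 1.22 and 1.05.

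Median ratios of the first library were higher in broad members than in the narrowest peaks, and medians of the second library were nearly level across widths. In several classes the second library's median was 1.06, its commonest value in narrower peaks. Its quartiles were 0.546 and 1.645 at 1 to 20 nt, and 0.649 and 1.44 at 125 to 149 nt. In peaks of 1 to 20 nt the medians were 1.07 in the first library and 1.06 in the second, and in peaks of 81 to 99 nt they were 1.29 and 1.09. Among the members, those of 100 to 124 nt had medians of 1.33 and 1.06, those of 125 to 149 nt 1.42 and 1.06, and those of 150 to 199 nt 1.31 and 1.05. The 33 members of 200 nt or more had 1.39 and 0.98. The share of peaks in which the first library was the higher was 60.9% (60.1 to 61.6) at 1 to 20 nt and 60.9% (60.1 to 61.7) at 41 to 60 nt. In members it was 68.2% (64.6 to 71.6) at 100 to 124 nt, 72.2% (66.5 to 77.3) at 125 to 149 nt and 65.2% (57.4 to 72.2) at 150 to 199 nt. Of the 33 members of 200 nt or more it was 78.8% (62.2 to 89.3).

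**Figure D2:**
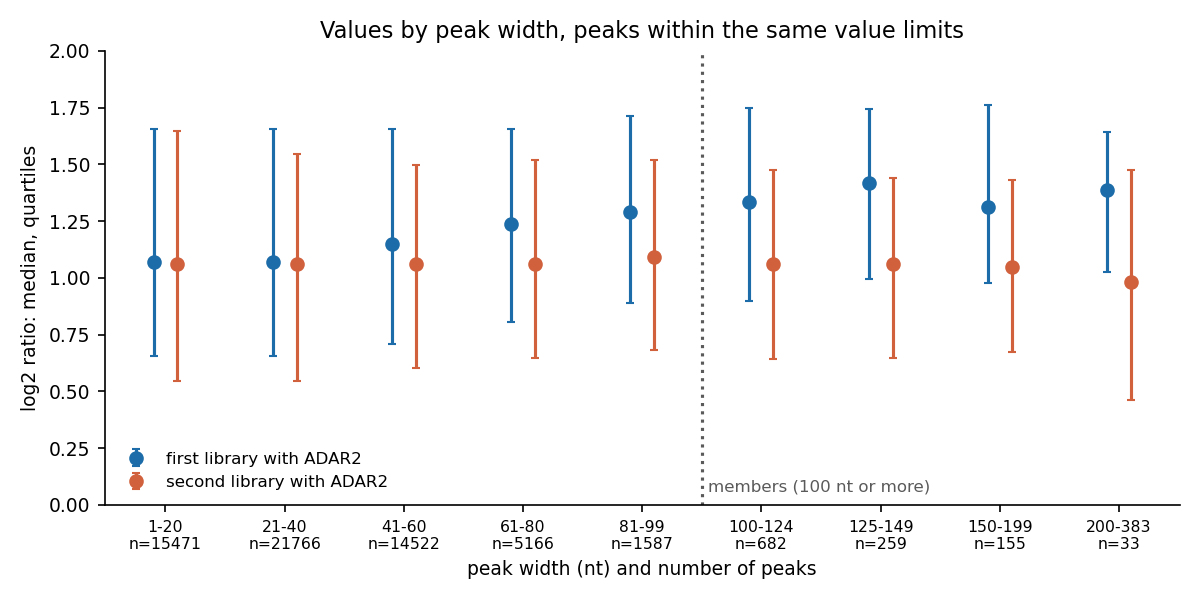
Median log2 ratio (points) and quartiles (bars) in each library with ADAR2, by peak width in nt, over the peaks that meet the value limits. The first library's median goes from 1.07 in the narrowest class to 1.42 in members of 125 to 149 nt, while the second library's stays between 0.98 and 1.09.

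Broad members rarely carried the few values that recur in narrower peaks. In the first library the 5 commonest ratios of the narrower peaks were 1.069, 1.654, 0.069, 0.654 and 1.391, and 38.8% (38.4 to 39.2) of those peaks held 1 of them. Of the members, 6.20% (4.94 to 7.76) did. In the second library the 5 commonest were 1.06, 1.645, 0.06, 0.645 and 1.382, held by 40.0% (39.6 to 40.4) of the narrower peaks and 7.62% (6.21 to 9.31) of the members. Each of the 5 values was 0.009 higher in the first library than its counterpart in the second. Relative to the lowest of them, 0.069, the others of the first library stood at 1.5, 2, 2.5 and 3 times its ratio on the linear scale, to 1 decimal. The 1129 members held 726 distinct values in the first library and 678 in the second, and the far larger narrower set held 1853 and 1500.

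Many members carried a value that reads as a mean. Most values in the table have at most 3 decimals, and a value with more was read as a mean of 3-decimal values, with the fewest that can produce it. Such a mean stood in at least 1 library in 415 members, 36.8% (34.0 to 39.6), against 2.79% (2.66 to 2.93) of the narrower peaks. It stood in both libraries in 83 members. The share with a mean in at least 1 library grew with width below 100 nt too. In narrower peaks it was 1.18% (1.02 to 1.36) at 1 to 20 nt, 7.18% (6.51 to 7.92) at 61 to 80 nt and 14.4% (12.7 to 16.2) at 81 to 99 nt. In members it went from 26.4% (23.2 to 29.8) at 100 to 124 nt to 63.2% (55.4 to 70.4) at 150 to 199 nt and 72.7% (55.8 to 84.9) at 200 nt or more. In the widest member, on chromosome 21, the first value needed at least 8 component values and the second at least 7. The 714 members with no sign of a mean had a median width of 114 nt, the 291 whose larger number was 2 had 125 nt, and the 38 with 4 or more had 144 nt. These numbers are minima, since a mean of several 3-decimal values can itself end after 3 decimals.

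Members also shared values with the rows beside them, and close neighbour pairs without a member did so at higher shares. In the libraries with ADAR2, 315 members had another peak within 100 nt, and in 130 of them, 41.3% (36.0 to 46.8), a value was identical, to 6 decimals, to that neighbour's value in the same library. These 130 were 11.5% (9.78 to 13.5) of all members, and 8.09% (7.88 to 8.32) of all narrower peaks held such an identical value. Where the gap was 20 nt or less, 49 of 56 neighbour pairs that included a member held an identical value, 87.5% (76.4 to 93.8). The identical value was in the first library alone in 33 of these pairs, in the second alone in 16, and in both in 0. At gaps of 21 to 50 nt the share was 49.6% (41.1 to 58.1) of 129 pairs, at 51 to 100 nt 12.6% (8.21 to 18.8) of 151, and at 201 to 1000 nt 0.901% (0.351 to 2.29) of 444. Among neighbour pairs that included no member, 93.7% of 999 held an identical value at 20 nt or less, and 66.4% (64.3 to 68.3) of 2170 at 21 to 50 nt. At 51 to 100 nt 19.5% (18.2 to 20.9) of 3218 such pairs did, and at 201 to 1000 nt 5.60% (5.24 to 5.99) of 14399. Identical values of close neighbours cannot be counted as separate measurements.

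**Figure D3:**
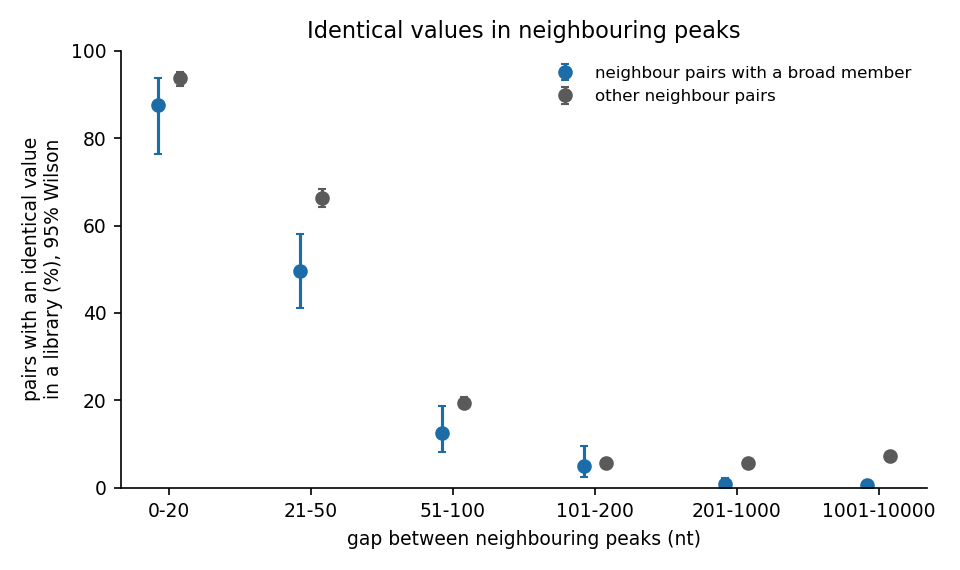
Share of neighbouring peak pairs with an identical log2 ratio in at least 1 library with ADAR2 (y axis, percent, with 95% Wilson intervals), by the gap between the peaks in nt (x axis), for pairs that include a broad member and for other pairs. Pairs with a member go from 87.5% at 20 nt or less to 0.901% at 201 to 1000 nt.

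Few members lay close to SRSF9 peaks that were present without ADAR2, but more did so than among the narrower peaks. A shared peak lay within 1 kb of 121 members, 10.7% (9.04 to 12.7), and of 5.32% (5.14 to 5.51) of the narrower peaks. For peaks found only without ADAR2 these shares were 11.6% (9.86 to 13.6), or 131 members, and 6.32% (6.12 to 6.52). Another peak found only with ADAR2 lay within 1 kb of 63.2% (60.4 to 66.0) of the members and 51.3% (50.9 to 51.7) of the narrower peaks. The median gap to the nearest peak of any class was 347 nt for members and 828 nt for narrower peaks. The shares also differed between width classes below 100 nt. Near a shared peak lay 4.99% (4.66 to 5.34) of peaks of 1 to 20 nt, 8.51% (7.23 to 9.98) of 81 to 99 nt and 10.1% (8.07 to 12.6) of members of 100 to 124 nt. The wider members had 13.1% (9.55 to 17.8) at 125 to 149 nt, 10.3% (6.45 to 16.1) at 150 to 199 nt and 6.06% (1.68 to 19.6) at 200 nt or more. At the width limit the share was 12.5% (6.19 to 23.6) of rows of 99 nt and 10% (4.35 to 21.4) of members of 100 nt.

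Narrower peaks in windows that held a member had shares closer to those of the members, but these windows were more crowded. When the genome was divided into windows of 100 kb, the 979 windows that held a member contained 10897 of the narrower peaks, and 9.05% (8.52 to 9.60) of these lay within 1 kb of a shared peak and 9.88% (9.34 to 10.5) within 1 kb of a peak found only without ADAR2. The members had 10.7% (9.04 to 12.7) and 11.6% (9.86 to 13.6), and the differences were not tested. The median number of peaks with ADAR2 in a peak's own window was 21 for these narrower peaks, 14 for the members and 13 for all narrower peaks, so this set is not matched to the members on crowding. Within 1 kb of another peak found only with ADAR2 were 63.4% (62.5 to 64.3) of the narrower peaks of these windows. The 714 members with no averaged value had 7.42% (5.72 to 9.58) near a shared peak and 8.54% (6.71 to 10.8) near a peak found only without ADAR2. The 415 members with an averaged value had 16.4% (13.1 to 20.3) and 16.9% (13.6 to 20.8).

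**Figure D4:**
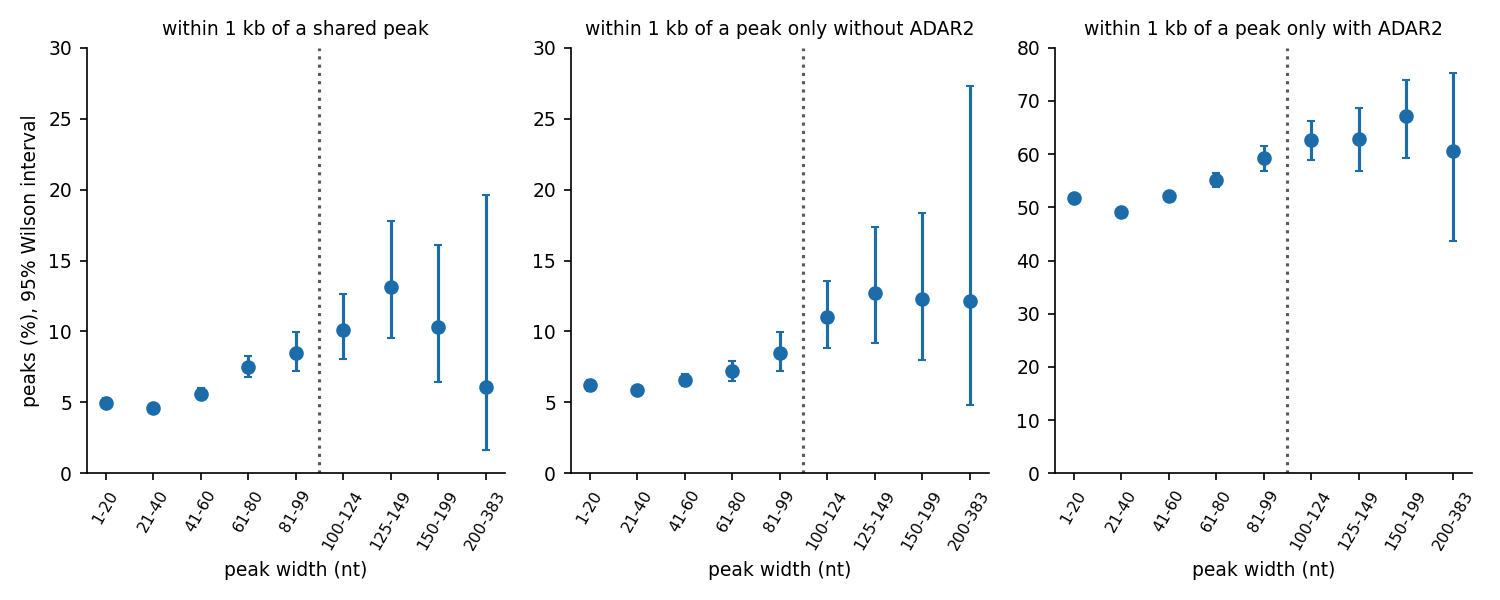
Share of peaks (y axis, percent, with 95% Wilson intervals) within 1 kb of a shared peak, of a peak found only without ADAR2 and of another peak found only with ADAR2, by peak width in nt (x axis). In all 3 panels the share is larger at 100 to 124 nt than at 1 to 20 nt, and the class of 200 to 383 nt holds 33 peaks.

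Most members were alone in their window of 100 kb, but a larger share of members than of narrower peaks lay near another member. Of the 979 windows of 100 kb with a member, 859 held 1, 96 held 2, 19 held 3, 4 held 4 and 1 held 5. Another member lay within 1 kb of 74 members, 6.55% (5.25 to 8.15), and a member lay within 1 kb of 1.91% (1.80 to 2.03) of the narrower peaks. Within 10 kb these shares were 13.6% (11.7 to 15.7) and 7.57% (7.36 to 7.79). Chromosome 1 held 161 members, 14.3% (12.3 to 16.4), against 11.9% (11.6 to 12.2) of the narrower peaks. Chromosome 2 held 4.87% (3.76 to 6.29) against 7.27% (7.06 to 7.49), and chromosome 17 held 4.52% (3.45 to 5.89) against 6.02% (5.83 to 6.22). On chromosome 19 the shares were 5.40% and 5.32%, and on chromosome 16 they were 4.69% and 4.69%. These chromosomes were picked after their shares were seen. Chromosome Y held 0 members and 2 narrower peaks.

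The window with most members was on chromosome 11 from 65100001 to 65200000, with 5 members among 36 peaks found only with ADAR2, 2 found only without it and 3 shared rows. All 5 lay close together. From 65190389 to 65190514 the ratios were 1.76 and 2.08 in the first and second library. From 65190617 to 65190810 they were 0.93 and 1.38, and after a gap of 1 nt, from 65190812 to 65190914, they were 0.57 and 1.38. The second library thus held the same value in both of these intervals, 1.3802 as deposited, while the first library differed. The members from 65190950 to 65191190 and from 65191283 to 65191414 had 0.56 and 1.09, and 0.51 and 1.15. The second library was the higher in all 5, in contrast to the 31.0% (28.4 to 33.8) of all members in which it was.

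Another 4 windows held 4 members each, of which examples were picked after their values were seen. On chromosome 19 from 2200001 to 2300000, with 47 peaks found only with ADAR2, 0 found only without it and 4 shared rows, the first library was the higher in all 4 members. The one from 2271254 to 2271362 had 1.98 and 1.17 there. On chromosome 21 from 34900001 to 35000000 were 33 peaks found only with ADAR2, 6 only without it and 9 shared rows. A member of this window, from 34915411 to 34915595, was 185 nt wide with 1.58 and 1.85, and another, from 34900398 to 34900516, with 1.95 and 1.65, lay 7 nt from a shared peak. The window on chromosome 3 from 184000001 to 184100000 was the most crowded of the 5, with 61, 9 and 14. Its members included the peak from 184033101 to 184033239, with 1.78 and 2.17. On chromosome 5 from 180600001 to 180700000 a member from 180665109 to 180665241, with 0.58 and 0.81, lay 1 nt from a peak found only without ADAR2. In that window a further member, 172 nt wide, from 180670691 to 180670862, had 0.30 and 0.06.

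Members have no value without ADAR2, so the conditions can be compared only in the shared regions beside them. Rows with repeated coordinates were averaged, which left 3615 nuclear shared regions, of which 168 lay within 1 kb of a member. Of these 168, 30 lay within 100 nt of a member and, as described below, are not independent of the rule. No median or share is given without them, and the regions farther off are not shown to be independent either. In these 168 the medians were 0.66 and 0.15 in the first and second SRSF9-only library, and with ADAR2 they were 1.18 and 0.86. Over all 3615 they were 0.96 and 0.20, and 1.31 and 1.04. The second SRSF9-only library was the lowest in both sets. The median difference, with minus without ADAR2, was 0.70 (quartiles -0.03 and 1.37) near members and 0.63 (-0.02 and 1.31) over all nuclear shared regions.

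Both libraries with ADAR2 lay above both without it in 96 of the 168 regions near members, 57.1% (49.6 to 64.4), where 50.3% of all nuclear shared regions did. They lay below both in 22 regions, 13.1% (8.81 to 19.0), where 8.82% of all did, and the libraries overlapped in 50. The counts near members include the 30 regions within 100 nt, so their distance from the share of all regions is not independent of the rule. After subtracting each library's median over all shared regions, the median difference near members was 0.11 (0.03 over all), with 60 regions above, 35.7%, where 33.8% of all were, and 56 below, 33.3%, where 30.3% of all were. Without the second SRSF9-only library, the median difference was 0.46 near members and 0.28 over all. Without the first SRSF9-only library these were 1.03 and 0.998. Leaving out the first library with ADAR2 gave 0.59 and 0.51, and leaving out the second gave 0.86 and 0.77. With 2 libraries against 2, an exact permutation test over libraries cannot pass a threshold of 0.05, and none was run.

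**Figure D5:**
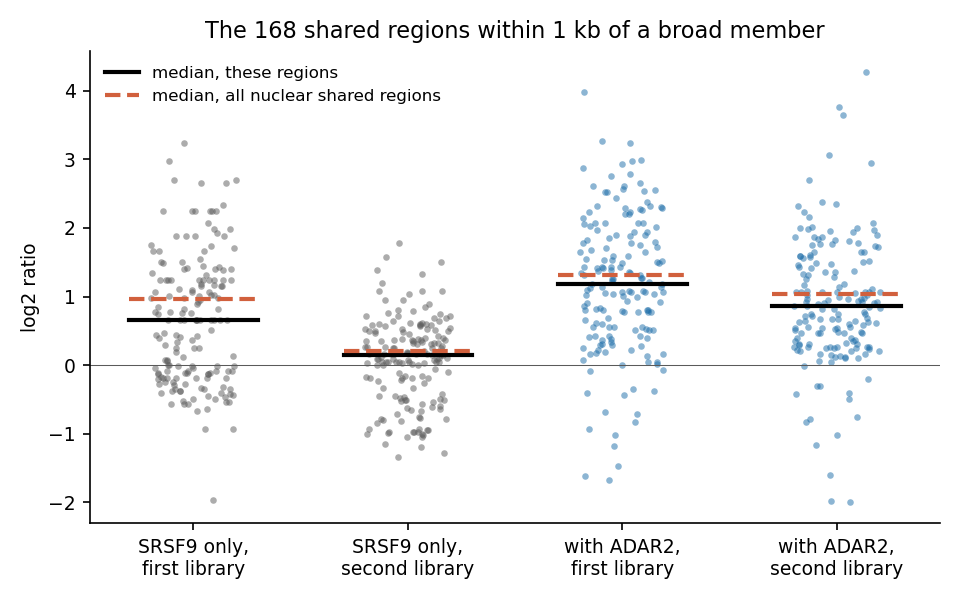
The log2 ratio (y axis) of the 168 shared regions within 1 kb of a broad member in each of the 4 libraries (x axis), with points spread sideways for legibility. Black lines are medians of these regions and dashed orange lines medians of all 3615 nuclear shared regions. The second SRSF9-only library is the lowest in both, with medians of 0.15 and 0.20.

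At closer range the shared regions and the members held some values in common. On chromosome 20 a member from 34330046 to 34330156, with 1.71 and 1.41, lay 4 nt from a shared region from 34329884 to 34330041, the shortest such gap. In that region the SRSF9-only libraries stood at -0.13 and -0.53 and the ADAR2 libraries at 1.71 and 1.38, and its first value with ADAR2 was identical to the member's. This pair was chosen after its values were seen. Of 28 neighbour pairs of a member and a shared region within 100 nt, 11 held an identical value in a library with ADAR2. Since the rule chose members on those values, the 30 regions within 100 nt are not independent of it. Their median difference was 1.17. Identical values also occurred farther out, in 8 of 161 neighbour pairs with a member at gaps of 101 to 200 nt. On chromosome 1 a shared region from 197115611 to 197115725, 121 nt from a member, held the member's first value, 1.80. The regions beyond 100 nt are thus not shown to be independent of the rule either.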

How the data were processed

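The deposited data are 1 peak table of the whole series with no header. Its 4 value columns hold log2 ratios, computed by the authors. The hg19 build comes from the submitters' processing notes. No source used here names the aligner, peak caller, annotation, thresholds or the denominator of the ratios. Columns were tied to a condition through the class that the table gives each row, and the columns of the absent condition hold 0. The input library has no column.

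Members and comparison rows were selected by the stated rule in Python 3.11.15 with pandas 2.3.3. Gaps are edge to edge and exclude the row itself. Intervals are 95% Wilson intervals from statsmodels 0.14.6. The gap and averaging functions were tested on simulated rows. Named peaks are the 10 widest members, the 10 with the highest and 5 with the lowest mean, those beside each limit, and the 5 windows of 100 kb with most members, with the members of the first. Examples from the other 4 windows, the chromosomes set side by side and the member nearest to a shared peak were picked after their values were seen. Members and rules were chosen with earlier results of these data known. No hg19 annotation or sequence was used, so the planned gene lists were not analysed here.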

Additional observations from a re-analysis of the deposited data

How the results depend on the processing

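The number of members depended on the width limit. With 80 nt or more there were 2866 and with 150 nt or more 188, against 1129. It ranged from 992 to 1086 when 1 library set the value limits, and was 935 with an upper limit of 1.5 and 949 with both libraries at 2 or lower. No coordinates were repeated among members. The share near a shared peak was 2.57% within 100 nt and 29.1% within 10 kb. It ranged from 10.5% to 10.9% with the limits from 1 library, and was 7.42% among members with no sign of a mean. That last alternative was chosen after seeing the data, as was leaving out members with an identical neighbour (9.41%). The share near a peak found only without ADAR2 was 2.21% within 100 nt, 32.9% within 10 kb and 9.63% at 80 nt or more. It was 8.54% among members with no sign of a mean, and ranged from 11.3% to 11.9% with the limits from 1 library. The difference in shared regions near members was 0.11 after centring. It was 1.17 within 100 nt (30 regions), 0.70 within 1 kb (168) and 0.79 within 10 kb (595). With 1 library left out it ranged from 0.46 to 1.03 within 1 kb. Over all nuclear shared regions it ranged from 0.28 to 0.998 with 1 library left out. No paired analysis was possible because the columns carry no replicate number and no result comes from a test. Depth is not in the table, so its limits on single peaks cannot be given.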
